A study of Mus musculus with 10 samples.

Results

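Rpl5 and Rpl11 encode the proteins of the large ribosomal subunit that bind 5S rRNA and join the growing subunit together with it, as the 5S RNP. When ribosome assembly stalls, the free 5S RNP binds Mdm2, the ubiquitin ligase that keeps p53 low, which is how these proteins became known as sensors of ribosome production. Their mRNAs belong to the TOP mRNAs, which begin with a run of pyrimidines at the 5′ end and are bound by Larp1, a protein that contacts both this run and the poly(A) tail. The poly(A) tails and the abundance of the Rpl5 and Rpl11 mRNAs were compared here between cells with and without knockdown of Larp1. Members were the reads on annotated transcripts of these 2 genes, of 13272 genes with reads, with the tag PASS for the quality of the tail estimate. There were 13452 such reads (5847 of Rpl5 and 7605 of Rpl11), which is 0.659% of 2042110 kept reads.

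All libraries came from WT P19 cells, a mouse embryonal carcinoma line that is pluripotent, grown undifferentiated in medium with serum. Control cells (siCtl) received a pool of scrambled siRNAs and knockdown cells (siLarp1) an siRNA against Larp1, both by lipofection. RNA was taken 24 h after the transfection, or at 48 h after a second one given at 24 h. Poly(A) RNA was selected with oligo(dT) beads and native molecules were read on Nanopore flow cells, with 3 libraries of each treatment at 24 h and 2 of each at 48 h. Each treatment has libraries numbered 19, 21 and 22 for 24 h, and 24 and 25 for 48 h. The study's methods call the libraries of a group biological replicates. Neither they nor the labels say whether these were separate cultures or transfections, so p-values measure the spread between these libraries.

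Both mRNAs carried the pyrimidine run at or just before the positions where most of their reads began. On the transcript that held 97.6% of the Rpl5 reads (ENSMUST00000082223.12, chr5:107900502-107909005, plus strand, 8 exons, build GRCm38), the longest run beginning with C in the annotated 5′ UTR was 13 nt long, and 62.2% of the reads started inside it or within 10 nt after it. On the transcript that held 98.7% of the Rpl11 reads (ENSMUST00000102536.10, chr4:136049731-136053393, minus strand, 6 exons) the run was 16 nt long, and 58.8% of the reads started there. The sequences show the motif that defines TOP mRNAs, with the pyrimidine run in capitals, at chr5:107900567-107900596 for Rpl5 and at chr4:136053355-136053384 for Rpl11, both in the 5′ UTR.
Rpl5: ccggtCTTTTTCCCCCTTagcgcggccgac
Rpl11: gaagtCTCCCTCTCTCTTCCTgttctccac
A run of at least 13 pyrimidines (C or T) was present in the 30 bases up to the median read start in 50 of 2329 genes, or 2.15%. Of the other 45 large-subunit genes 35 had such a window, too few for a share to be given, and 18 of the 35 held the run. The limit of 13 equals the run length of Rpl5, the shorter of the members' runs, so both members met it by construction. Only the transcript strand was searched, and 2329 of 2612 genes with at least 100 reads had a window in the reference.

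At the other end, 96.9% of the Rpl5 reads ended within 20 nt of position 1090 of a transcript annotated as 2045 nt long. For Rpl11, 97.8% ended within 20 nt of position 617 of 833 nt. The measured tails of both genes were therefore added at proximal sites, in the 3′ UTR. The last 30 bases before them are shown because they place the tail, with the poly(A) signal AATAAA in capitals, at chr5:107908021-107908050 for Rpl5 and at chr4:136049947-136049976 for Rpl11.
Rpl5: cataaagacAATAAAcatattgatcaagca
Rpl11: aaaagctAATAAAattttctcagaaatgca
AATAAA stood in the last 30 bases in 67.8% of the 2329 genes, on the transcript strand. Reads with an end beyond the proximal site made up 2.12% of the Rpl5 reads, 121 in number, and none of 7509 in Rpl11. Their share in Rpl5 was 1.86% in siCtl and 2.68% in siLarp1 at 24 h, and 2.02% and 1.91% at 48 h, a difference that did not pass (exact permutation p = 0.2 and p = 1, two-sided).

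The libraries held between 112720 and 423398 kept reads. At 24 h each siLarp1 library was shallower than each siCtl library, and the treatments were sequenced as separate pools in separate runs, so effects of the pool and of the knockdown cannot be told apart there. At 48 h all libraries shared 1 pool and both runs. Larp1 had 75.9, 84.2 and 85.0 reads per 1000000 kept reads (RPM) in the siCtl libraries at 24 h, from 22, 29 and 36 reads. The siLarp1 libraries at 24 h had 33.4, 44.9 and 19.1 RPM, from 4, 6 and 3 reads. At 48 h Larp1 had 168.6 and 123.1 RPM in siCtl and 18.5 and 24.9 RPM in siLarp1 libraries. Larp1 was lower in every siLarp1 library of its time point, with a log2 change of −1.94 (SE 0.36) over both times and an adjusted p of 0.00113 in limma voom. Neither time point passed alone (adjusted p = 0.630 for 24 h, 0.0871 for 48 h, limma voom), and the adjusted p over both rose to 0.169 without siLarp1 library 24. At 48 h Larp1 passed in 4 of 15 alternatives, with adjusted p-values in limma voom of 0.0345 with median-ratio factors, 0.0294 without a filter, 0.00734 with the block and 0.0487 without siCtl library 22. In such bulk RNA, fewer cells that express a gene and less of its RNA per cell cannot be told apart. Of 10 markers of pluripotent cells, 9 had reads and only Zfp42 was at 0, with a summed level of 3070 to 4148 RPM. Summed neuronal markers reached 196 to 366 RPM, mesenchymal ones 6.37 to 17.7 RPM and endodermal ones 0 to 6.37 RPM.

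Tails shorter than 30 nt, about the stretch that a poly(A)-binding protein covers, made up a small part of the Rpl11 reads and were more frequent in every siLarp1 library. The share was 1.55%, 2.10% and 1.82% in siCtl libraries 19, 21 and 22 at 24 h. In the siLarp1 libraries with the same numbers it was 4.49%, 4.63% and 3.42%. The lowest siLarp1 library thus lay above the highest siCtl library. The siCtl mean was 1.82% ± 0.278 (SD, n = 3) and the siLarp1 mean 4.18% ± 0.662 (SD, n = 3), from 74 of 4024 and 66 of 1593 reads. The difference of 2.36 percentage points had an exact permutation p of 0.1 (two-sided), the smallest that 3 against 3 libraries allow.

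At 48 h the Rpl11 share was 2.78% and 2.196% in siCtl libraries 24 and 25. It was 6.30% and 4.49% in the siLarp1 libraries, again without overlap. The means of 2.49% ± 0.411 (SD, n = 2) and 5.39% ± 1.28 (SD, n = 2) differed by 2.91 percentage points (exact permutation p = 0.333, two-sided, the smallest that 2 against 2 libraries allow). With labels permuted within each time point, the mean difference of 2.63 points had an exact p of 0.0167, the smallest that 120 arrangements give, and 0.480 after Benjamini-Hochberg adjustment over 1758 genes. Of these genes, 4.55% were higher in siLarp1 with an exact permutation p under 0.05. Permuted only within library numbers, which were taken to pair the libraries, the p was 0.0625, the smallest that pairing allows. Ordered by the means, the groups ran from siCtl at 24 h over siCtl at 48 h and siLarp1 at 24 h to siLarp1 at 48 h, and only the ranges of the siLarp1 groups overlapped.

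The excess of <30-nt Rpl11 tails at 48 h was seen in both sequencing runs. In run 7 the share was 2.48% in siCtl (19 of 767 reads, 95% Wilson interval 1.59% to 3.84%) and 5.33% in siLarp1 (36 of 675 reads, 3.88% to 7.30%). In run 8 it was 2.24% (7 of 312 reads, 1.09% to 4.56%) and 5.98% (14 of 234 reads, 3.597% to 9.79%). At 24 h, where no run held both treatments, the siCtl runs gave 1.48%, 2.05% and 1.97% and the siLarp1 runs 4.09%, 2.27% and 5.30%. The 2.27% rested on 3 of 132 reads. These intervals cover counting error only.

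Rpl5 also had more <30-nt tails in each siLarp1 library at 24 h, but not in each at 48 h. At 24 h its <30-nt share was 1.45%, 0.994% and 1.37% in siCtl and 2.99%, 2.30% and 2.01% in siLarp1 libraries 19, 21 and 22. The groups did not overlap, and the means of 1.27% ± 0.244 (SD, n = 3) and 2.43% ± 0.507 (SD, n = 3) differed by 1.16 percentage points (exact permutation p = 0.1, two-sided). At 48 h the share was 1.82% and 1.77% in siCtl libraries, and 4.18% and 1.56% in siLarp1 libraries 24 and 25. Library 24 was high, while library 25 was below both controls. The means were 1.80% ± 0.0319 and 2.87% ± 1.85 (SD, n = 2). Their difference of 1.07 points (exact permutation p = 1) turned to −0.24 points without siLarp1 library 24. Over both times the difference of 1.12 points had an exact permutation p of 0.05, and 0.726 after adjustment over 1758 genes.

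**Figure D1:**
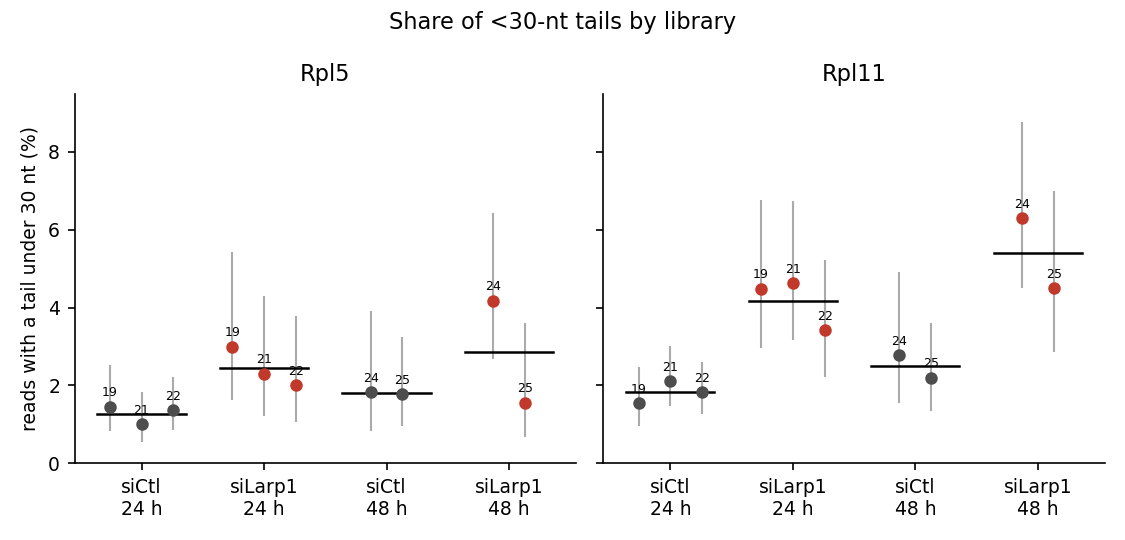
Share of reads with a tail under 30 nt, in percent, for each library of the 4 groups (dots with library numbers, 95% Wilson intervals in grey, group means as black bars; siCtl grey, siLarp1 red). All siLarp1 libraries of Rpl11 lie at 3.42% or above and all its siCtl libraries at 2.78% or below, while in Rpl5 siLarp1 library 25 lies among the controls at 1.56%.

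Both genes lacked overlap in the <30-nt share at 24 h, and Rpl11 at 24 h and 48 h. Of 1758 genes tested, 7% were higher in siLarp1 without overlap at 24 h, 20.2% at 48 h and 3.01% at both. Within the Rpl5 runs at 48 h the share was 1.82% in siCtl and 3.26% in siLarp1 (run 7), and 1.69% and 2.59% (run 8). At 24 h the siCtl runs gave 1.55%, 0.962% and 1.31% and the siLarp1 runs 2.67%, 4.17% and 0 of 191 reads, which allows a share of up to 1.57% at 3 counts (upper 95% Wilson limit 1.97%).

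In a quasi-binomial fit across all 1758 genes, which models the odds of a <30-nt tail on a log2 scale, Rpl11 rose at each time and in the mean, and Rpl5 in the mean. For Rpl11 the log2 odds rose by 1.21 (SE 0.23) at 24 h, with a Benjamini-Hochberg adjusted p of 4.17e-05 in this limma-moderated fit. At 48 h they rose by 1.22 (SE 0.33, adjusted p = 0.0204 in the same limma-moderated fit), and the mean of both times had an adjusted p of 2.16e-07. For Rpl5 the changes were 0.94 (SE 0.33, adjusted p = 0.113) and 0.79 (SE 0.43, adjusted p = 0.890) and did not pass, while their mean of 0.87 (SE 0.27) did, with an adjusted p of 0.0417. The fit called 3.41% of the genes higher at 24 h, 1.31% at 48 h and 3.64% for the mean, and none lower. At an unadjusted p under 0.05, 2, 8 and 8 genes were lower. The median change over all genes was 0.32, 0.24 and 0.26.

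The calls did not all hold when libraries were paired or left out. With the library number as a block, Rpl11 had adjusted p-values of 0.0884 at 24 h, 0.410 at 48 h and 0.0394 for the mean, and Rpl5 had 0.430 for the mean, in the same limma-moderated fit. This blocked fit called 0.91% of all genes higher for the mean. The Rpl11 call for the mean held without each library in turn. Its call at 48 h was lost without siCtl library 24 (adjusted p = 0.122), siCtl library 25 (0.989) or siLarp1 library 24 (0.824). The Rpl5 call for the mean was lost when genes with at least 30 reads were tested (adjusted p = 0.0512 in the limma-moderated fit), and without any of 6 libraries. The adjusted p-values were 0.0942 without siCtl 21, 0.133 without siLarp1 19, 0.0507 without siLarp1 21, 0.145 without siCtl 24, 0.536 without siCtl 25 and 0.988 without siLarp1 24. Without the last of these the log2 change fell from 0.87 to 0.41.

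The median tail did not change past the test over both times in either gene (exact permutation p = 0.7 for Rpl5 and p = 1 for Rpl11, two-sided). The median Rpl5 tail was 105.8, 110.0 and 102.7 nt in siCtl and 108.5, 100.3 and 103.8 nt in siLarp1 libraries at 24 h. At 48 h it was 99.2 and 94.9 nt in siCtl and 94.6 and 100.2 nt in siLarp1 libraries. The treatments overlapped at both times (exact permutation p = 0.6 and p = 1, two-sided). The median Rpl11 tail at 24 h was 92.7, 91.6 and 91.8 nt in siCtl and 91.0, 85.2 and 88.6 nt in siLarp1 libraries, lower by 3.77 nt on average and without overlap (exact permutation p = 0.1), as in 5.92% of all genes. At 48 h its median was 79.9 and 85.9 nt in siCtl and 78.9 and 96.6 nt in siLarp1 libraries, with siLarp1 library 24 lowest and 25 highest (exact permutation p = 1). Library 25 also had the lowest share of tails of 30 to 90 nt in Rpl11, 39.7%, against 51.8% in siLarp1 library 24 and 54.3% and 51.2% in siCtl.

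The 10th percentile of the tails, a measure added after the medians and shares had been seen, separated the treatments at each time point in both genes, with lower values after knockdown. In Rpl5 this reversed in the 302 reads with a mapping quality of at least 10, with differences of 11.3 nt at 24 h and 0.41 nt at 48 h. In Rpl5 it was 53.4, 55.7 and 51.7 nt in siCtl and 47.3, 50.6 and 49.7 nt in siLarp1 at 24 h, and 52.1 and 48.5 nt against 41.2 and 48.4 nt at 48 h. The last gap was narrow, with siLarp1 library 25 just under siCtl library 25. In Rpl11 it was 47.8, 47.9 and 45.1 nt against 40.5, 39.6 and 39.8 nt at 24 h, and 40.4 and 42.8 nt against 34.5 and 39.9 nt at 48 h. Over both times the difference was −4.96 nt in Rpl5 and −5.68 nt in Rpl11, each with an exact permutation p of 0.0167 (two-sided), and of 0.0625 within library numbers, the smallest values possible. For Rpl5 the p rose to 0.05 without siLarp1 19, 0.15 without siCtl 24, 0.0667 without siCtl 25 and 0.0667 without siLarp1 24, in exact permutation tests with fewer arrangements, and the difference was −3.17 nt without the last. Of 1758 genes, 6.77% were lower without overlap at 24 h, 18.3% at 48 h and 3.53% at both.

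**Figure D2:**
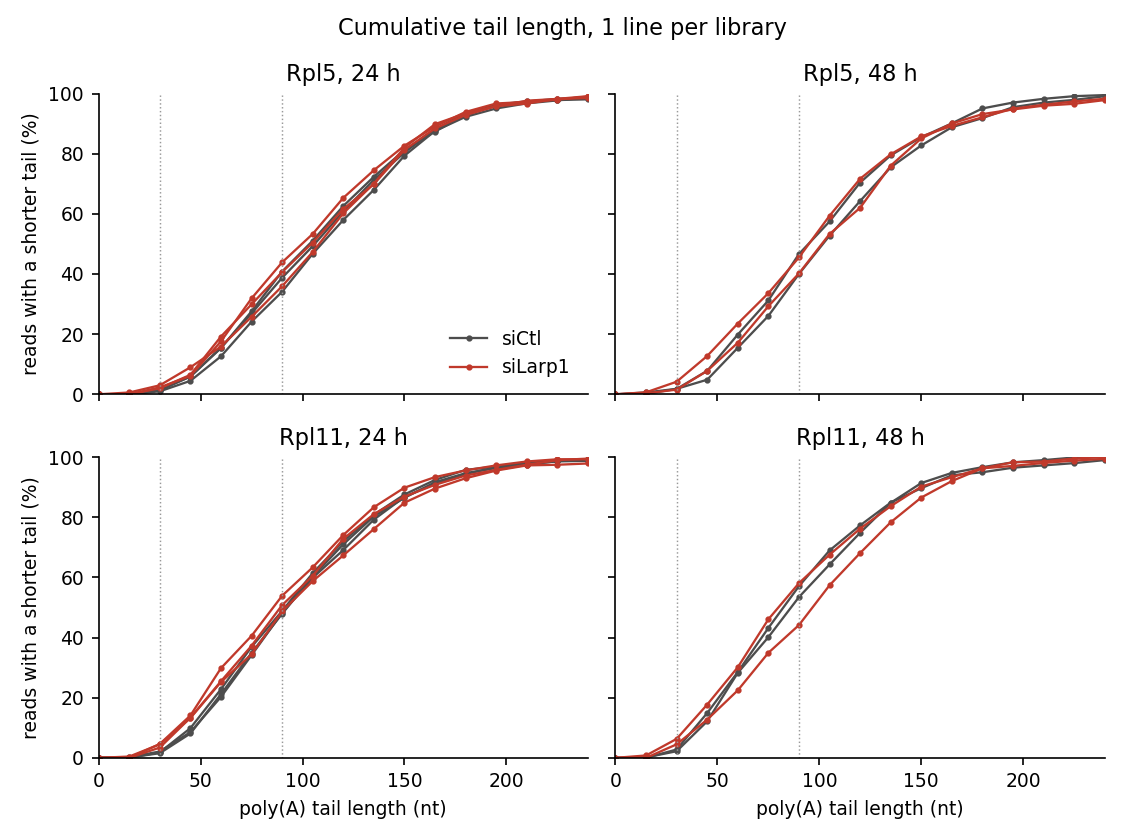
Percentage of reads with a shorter tail than the length on the x axis (nt, in steps of 15 nt), with 1 line per library (siCtl grey, siLarp1 red) and dotted lines at 30 and 90 nt. The red lines lie above the grey ones at 30 nt in Rpl11 at both times, and the treatments overlap at 120 nt in all panels.

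**Figure D3:**
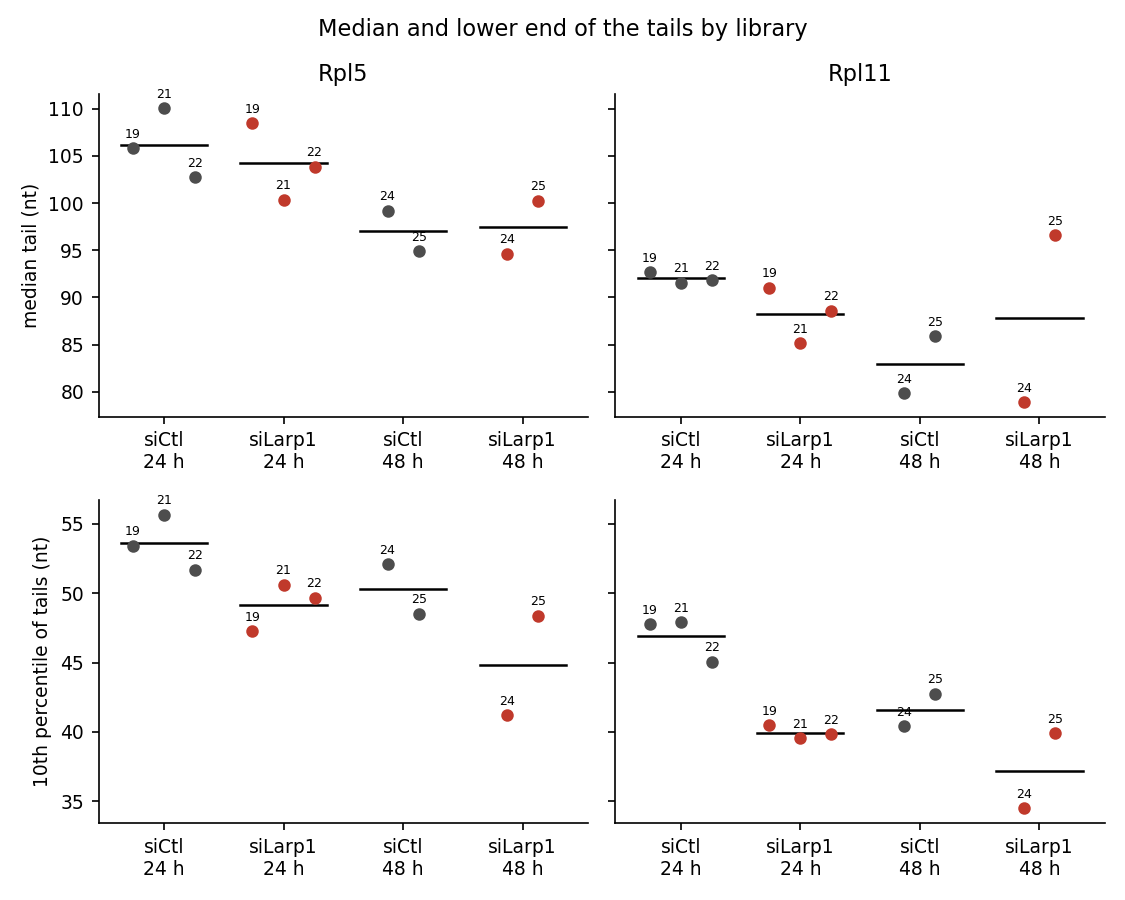
Median (top) and 10th percentile (bottom) of the tails in nt for each library, with group means as black bars; the y axes do not start at 0. The 10th percentile is lower in siLarp1 in all panels, by group means of 53.6 against 49.2 nt in Rpl5 and 46.9 against 39.95 nt in Rpl11 at 24 h, whereas the medians overlap except for Rpl11 at 24 h.

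The share of tails of 30 to 90 nt showed no change past the test in either gene. In Rpl5 its mean was 36.6% ± 3.23 in siCtl and 37.7% ± 4.39 in siLarp1 (SD, n = 3) at 24 h, and 41.5% ± 4.72 against 39.97% ± 1.90 (SD, n = 2) at 48 h. In Rpl11 it was 46.5% ± 0.444 against 47.1% ± 2.80 (SD, n = 3), and 52.8% ± 2.16 against 45.7% ± 8.57 (SD, n = 2). The largest of these differences, −7.06 points in Rpl11 at 48 h, had an exact permutation p of 0.667 and an adjusted p of 0.832 in the limma-moderated fit. That fit called no member in this class. It called 0.23% of 2612 genes higher at 24 h, none at 48 h (27 higher and 119 lower at an unadjusted p under 0.05), and 0.191% higher and 0.115% lower for the mean of both times.

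Although their proteins act as a pair, the mRNAs had different tail profiles. The median Rpl5 tail was longer than the median Rpl11 tail in 10 of 10 libraries, by 13.8 nt ± 4.82 (SD, n = 10) and by between 3.62 and 19.3 nt (exact sign-flip permutation test, two-sided, p = 0.00195, the smallest possible). Rpl5 had fewer tails of 30 to 90 nt in 10 of 10 libraries, with a mean of 38.6% against 47.8%. It also had fewer <30-nt tails in 10 of 10 libraries, with a mean of 2.04% against 3.38%. The change with siLarp1, by contrast, did not differ detectably between the genes. The log2 odds of a <30-nt tail rose by 0.44 less in Rpl5 than in Rpl11 over both times (exact permutation p = 0.15, two-sided). At 48 h all siLarp1 libraries had a larger gap than all siCtl libraries, and at 24 h the groups overlapped. Leaving out siCtl library 21 gave a gap of 0.57 and an exact permutation p of 0.0167.

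Among 277 genes with a mean of at least 100 reads per library, the tail profile nearest to that of Rpl5 belonged to Rpl7, followed by Rpl29 and Rpl8. Rpl7 differed by 2.39 percentage points, as the mean over 10 libraries of the summed absolute differences, times 0.5, in the shares of tails under 30, of 30 to 90 and over 90 nt. For Rpl11 the nearest were Rpl13 at 2.77 points, Rps16 and Rpl37. All of these encode ribosomal proteins, but the share of such genes among the 277 was not counted. Rpl5 and Rpl11 differed from each other by 10.5 points, more than the median distance of 6.50 points from Rpl5 and 9.31 points from Rpl11 to all these genes.

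Compared with the other proteins of the large subunit, Rpl11 was near the top and Rpl5 near the middle. By the change in the <30-nt share at 24 h, Rpl11 ranked 3rd and Rpl5 29th of 47 large-subunit genes, and at 48 h they ranked 9th and 31st. The median of the other 45 genes was 1.35 points at 24 h and 1.54 points at 48 h. Of these 45 genes, 30 had a higher <30-nt share by the limma-moderated fit over both times and none a lower one, and the median change was 0.82 on the log2 odds scale, against 0.26 over all genes. The largest changes were those of Rpl35 (1.66, SE 0.33), Rpl10a (1.52) and Rpl22 (1.41). On simulated reads the fit recovered 21.3% of genes with a 4-fold change in odds, and 100% of those with at least 5000 reads. The 45 genes held 362286 of 2042110 kept reads, so their calls are not matched for reads to those over all genes. With the library number as a block 5 of 45 were called, against 0.91% of all genes. The fit called 10 of 45 without siCtl library 25, and 20 of 45 without siLarp1 library 24. Tested within libraries, the change in Rpl5 differed from that of the other 45 genes pooled by −0.01 on the log2 odds scale (exact permutation p = 0.983). The change in Rpl11 was larger by 0.43 (exact permutation p = 0.05, two-sided). This exact permutation p did not fall under the threshold of 0.05, and was 0.0333 without siCtl 21, siLarp1 22 or siLarp1 25.

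**Figure D4:**
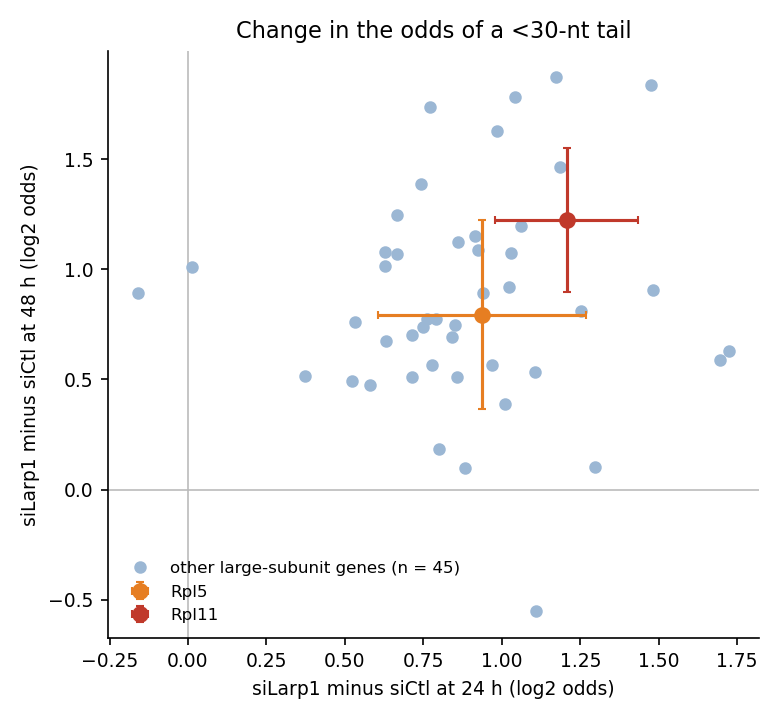
Change in the log2 odds of a <30-nt tail, siLarp1 minus siCtl, at 24 h (x axis) and 48 h (y axis), for Rpl5, Rpl11 (coloured, bars are standard errors) and 45 other large-subunit genes (blue). Of the blue points 43 lie above 0 on both axes, and both members lie within their range of −0.16 to 1.72 at 24 h and −0.55 to 1.87 at 48 h.

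The abundance of the members did not change past the test. Rpl5 had 2851, 2922 and 2766 RPM in siCtl and 2787, 2931 and 2853 RPM in siLarp1 libraries at 24 h, which overlapped. Rpl11 had 3797, 3872 and 3758 RPM in siCtl and 3904, 4037 and 3725 RPM in siLarp1 libraries at 24 h. The log2 changes at 24 h were 0.01 (SE 0.06) and 0.03 (SE 0.05), with adjusted p-values of 0.991 and 0.978 in limma voom over 5858 genes. At 48 h Rpl5 had 2928 and 3156 RPM in siCtl against 2807 and 2663 RPM in siLarp1 libraries. Rpl11 had 3513 and 3822 RPM against 3134 and 3326 RPM. Both were lower without overlap, as 15% of all genes were, and the log2 changes of −0.16 (SE 0.09) and −0.20 (SE 0.08) had an adjusted p of 0.944 in limma voom. The other 45 large-subunit genes had a median log2 change of −0.16 at 48 h, with 6 above 0, against 0.05 over all genes. None of the 45 was called, while 19 were lower and 1 higher at an unadjusted p under 0.05 in limma voom. Across all genes limma voom called none at 24 h (228 higher and 113 lower at an unadjusted p under 0.05), 0.0171% in each direction at 48 h, and 0.0683% higher and 0.0854% lower over both times.

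**Figure D5:**
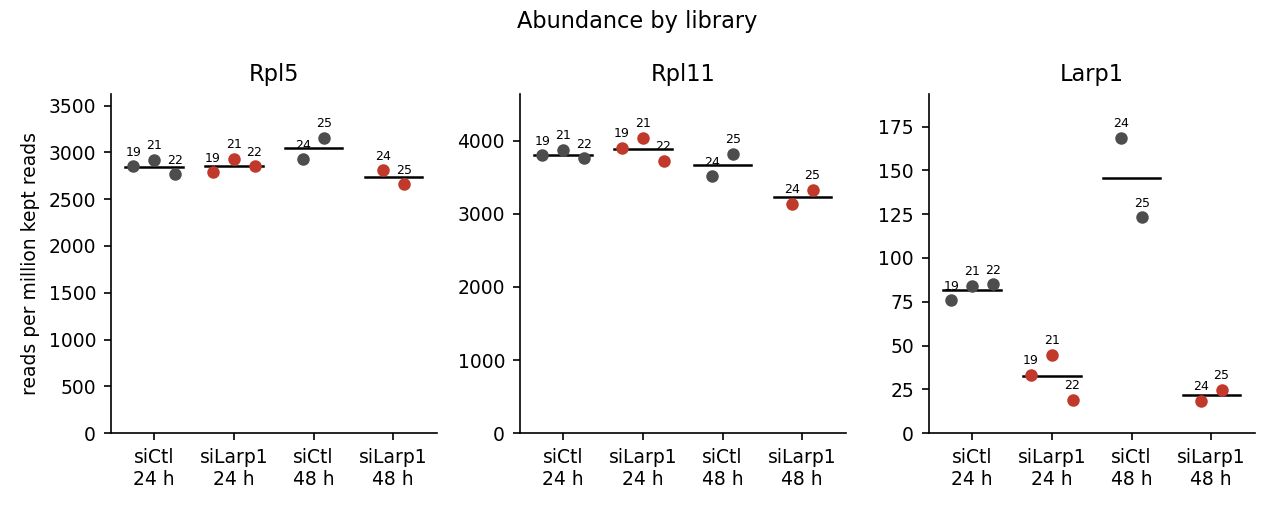
RPM in each library for Rpl5, Rpl11 and the siRNA target Larp1 (dots with library numbers, group means as black bars, axes from 0). Larp1 is lower in all siLarp1 libraries, at 44.9 RPM or below against 75.9 RPM or above in siCtl, while Rpl5 and Rpl11 stay within 2663 to 3156 and 3134 to 4037 RPM.

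Reads of Rpl5 were less certain to belong to their gene than those of Rpl11. A mapping quality of 0 or 1, which an aligner gives when another target matches about equally well, was found in 92.7% of the Rpl5 reads and in 3.12% of the Rpl11 reads. Gm15500, a gene of 1 exon at chr7:114705217-114706235 (minus strand), is identical to Rpl5 over 1018 nt, from position 72 to 1089 of the Rpl5 transcript, which covers nearly all of the transcribed part that the reads show. It held 518 reads of PASS quality, which could come from either gene, with a median tail of 106.3 nt against 103.3 nt on the main Rpl5 transcript. Adding these reads to Rpl5 left the <30-nt comparisons on the same side of the threshold. Only 302 Rpl5 reads had a mapping quality of at least 10, and in these the <30-nt share was lower in siLarp1, with differences of −2.88 points at 24 h (exact permutation p = 0.1), −1.92 points at 48 h (p = 1, exact) and −2.40 points over both (p = 0.05, exact). How many of the other Rpl5 reads came from Gm15500 was not tested.

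Reads that began before the start codon and reads that began at or after it both carried short tails. In Rpl5 84.5% and in Rpl11 61.4% of the reads began before the start codon. The <30-nt share was 1.74% in these Rpl5 reads and 2.03% in the other Rpl5 reads, and 2.69% and 3.04% in Rpl11. In Rpl11 the start codon lay at position 41, and the median read start was 39 with an upper quartile of 44. The split therefore did not separate full from truncated molecules in Rpl11. The share of reads beginning before the start codon did not differ detectably between treatments over both times (exact permutation p = 0.983 for Rpl5 and p = 0.35 for Rpl11, two-sided).

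Genes around the 5S RNP and p53 had far fewer reads. Of 7 symbols listed for assembly of the 5S RNP, 6 had at least 30 reads (the other, Gltscr2, is an older name of Nop53). None changed in abundance over both times in limma voom, with 1 lower at an unadjusted p under 0.05, the large ATPase Mdn1 that removes assembly factors (log2 change −1.01, SE 0.50, adjusted p = 0.80 in limma voom). Nop53, a nucleolar assembly factor, had a log2 change of 0.10 (SE 0.21) from 315 reads. Rrs1 and Rpf2, which bring the 5S RNP to the pre-ribosome, had changes of 0.10 (SE 0.23) and 0.09 (SE 0.25). In the <30-nt class 3 of these genes could be fitted and none was called, also at an unadjusted p under 0.05.

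Of 5 genes that control p53, only Mdm2 and Npm1 had at least 30 reads. Mdm2 had 70 reads and a log2 change of 0.12 (SE 0.39, adjusted p = 0.975 in limma voom). Npm1, a nucleolar chaperone that also binds Mdm2 and Arf, fell by 0.18 on the log2 scale (SE 0.04, adjusted p = 0.0286 in limma voom). This call was kept in 6 of 14 alternatives, with changes from −0.21 to −0.15 and adjusted p-values of up to 0.657. Of 22 targets of p53, 10 had at least 30 reads and none changed in abundance by limma voom, also at an unadjusted p under 0.05. Their median log2 change over both times was 0.31, with 7 of 10 above 0, against 0.04 over all genes. The most read of them were Rps27l, itself a ribosomal protein (log2 change −0.03, SE 0.10), Bax, a pore-forming inducer of cell death (−0.13, SE 0.16), Ddit4, an inhibitor of mTOR (−0.09, SE 0.22), and Aen, a nuclease (0.17, SE 0.31). The 10 targets had between 32 and 1906 reads each.

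Of 11 other ribosomal proteins reported to bind Mdm2, 5 had a higher <30-nt share over both times by the limma-moderated fit, with 3.64% of all genes called. They were Rps20 (log2 odds 1.70, SE 0.33), Rpl37 (0.92, SE 0.21), Rps3 (0.81, SE 0.15), Rpl26 (0.74, SE 0.17) and Rps14 (0.53, SE 0.15). Of the 45 other large-subunit genes 30 were called, with a median of 0.82, and Rpl23, Rpl26 and Rpl37 are in both lists. The median over the 11 genes was 0.74, against 0.26 over all genes. The counts of calls in the lists and over all genes were not matched for reads per gene. With the library number as a block only Rps3 was called, and likewise without siCtl library 25, where Rps14 had a change of 0.17 on the log2 odds scale (adjusted p = 0.996 in the limma-moderated fit). In abundance none of the 11 had a change above 0 over both times, with a median log2 change of −0.11 against 0.04 over all genes. At an unadjusted p under 0.05 in limma voom 5 were lower. Of the 11, 1 was called lower, Rps14 (log2 change −0.25, SE 0.05, adjusted p = 0.00634 in limma voom), against 0.0854% of all genes. This call was kept in 12 of 14 alternatives, and lost without siCtl library 25 (adjusted p = 0.656 in limma voom) or siLarp1 library 24 (0.425).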

How the data were processed

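The authors called bases with Guppy, assigned barcodes with Deeplexicon, aligned reads with minimap2 2.20 (per the labels) to mm10 transcripts of a GENCODE annotation and estimated tails with Nanopolish. The deposited table holds 1 line per alignment of a read, with the tail in nt, the barcode confidence as a fraction, the mapping quality as a score and the aligned positions. Of 2583495 alignments to transcripts, those tagged PASS and not on mitochondrial genes or pseudogenes were kept. Among members, 7 were second alignments of a read.

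Groups came from the labels. The library numbers are the table's, and which labelled replicate each is was not given. Members and gene lists were chosen with earlier results of these data known. Named genes were the members, Larp1, the 3 nearest tail profiles of each member, and list genes with at least 30 reads that passed a test, or up to 4 with the most reads. Library values were compared by exact permutation (two-sided, 52 tests on the members' tails and read ratio). This count leaves out the tests on read ends, read starts, RPM and alternatives, and the sign-flip tests between the genes. Genes with at least 100 reads, and at least 5 in and outside the class, were fitted with a quasi-binomial model of 4 group means, with 0.5 added to each group tally and dispersions moderated by limma 3.58.1 (R 4.3.3). Reads per gene (at least 30) were fitted with limma voom, with kept reads as library size. The threshold was a Benjamini-Hochberg adjusted p under 0.05. On simulated reads of 1603 genes, the tail fit recovered 21.3% of genes with a 4-fold change in odds over both times, and 100% of those with at least 5000 reads. That change was larger than the one fitted for either member, and the simulated spread between libraries was fixed. The 100% therefore does not give the power for the members. In a like simulation over 5644 genes, voom recovered 82.5% of 4-fold changes.

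Deviations of log2 RPM from the group means, over 278 genes, correlated between siCtl and siLarp1 libraries of the same number. The r was 0.18, 0.56 and 0.51 at 24 h and 0.21 at 48 h, so the numbers were taken to pair libraries. Such a correlation was not computed for the tail shares. At 24 h libraries of the same number also carried the same barcode, and at 48 h they did not. Whether the barcode underlies the correlation was not tested. With 2 libraries a group at 48 h, pairs of unlike number had an r of −0.21 by construction. Sequences were read from GENCODE M21 transcripts and the GRCm38 genome. Alternatives covered quality tags, barcode confidence (at least 0.9), mapping quality (at least 10), the most-read transcript, reads of the copy, read starts, class limits, scaling, filters, the block and each library left out. Where this left 1 library in a group at 48 h, that library was assumed to vary like those of the other groups. The measures at the 10th percentile, the copy and the read starts were chosen after seeing the data.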

Additional observations from a re-analysis of the deposited data

How the results depend on the processing

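Of 882 alternative values, 738 kept their direction and their side of the threshold (counts: within 1.5 times). The cause of the others was not tested. The <30-nt share of Rpl11 kept its direction in all alternatives. Without a library in turn its difference was 2.13 to 2.74 points at 24 h, 2.00 to 3.81 at 48 h and 2.18 to 3.08 over both. The shares rested on 16 to 38 reads of <30 nt a group in Rpl5 and 26 to 74 in Rpl11.

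With mapping quality of at least 10, Rpl5 reversed in the <30-nt share (−2.88 points at 24 h, −1.92 at 48 h, −2.40 over both), the median (1.22 nt at 24 h, 15.3 over both) and the 10th percentile (11.3, 0.41 and 5.84 nt). Its log2 odds against Rpl11 over both became −2.35 (exact p = 0.0167), the log2 read ratio at 24 h 0.33, the median difference 24.2 nt at 48 h and 14.5 over both, and the log2 odds against the large subunit −1.68 at 24 h and −1.91 over both (exact p = 0.0167).

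With all quality tags the Rpl5 <30-nt difference over both was 1.17 points (exact p = 0.0167), its 48 h median difference −0.31 nt and its log2 odds against the large subunit over both 0.083. With barcode confidence of at least 0.9 they were 1.18 points (exact p = 0.0167), a median of 0.28 nt over both, and log2 odds of 0.055 at 48 h and 0.23 over both against the large subunit. Against Rpl11 that setting gave log2 odds of 0.071 at 24 h and log2 read ratios of −0.047 at 48 h and −0.033 over both. With the copy's reads Rpl5 had 0.066 points in the 30 to 90 nt share over both and −0.98 nt in the 48 h median. Reads from before the start codon gave 0.12 points and a log2 read ratio of 0.017 at 24 h. The most-read transcript gave log2 read ratios of −0.0079 at 48 h and −0.014 over both. Class limits of 25 and 40 nt gave Rpl5 log2 odds of 0.072 and 0.063 against the large subunit over both. Rpl11 against the large subunit passed with barcode confidence (0.34), the most-read transcript (0.39) and the limit of 25 nt (0.62), each at an exact p of 0.0333.

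With the replicate block, the differences over both in the <30-nt share of Rpl11 (2.63 points), the 10th percentile of Rpl11 (−5.68 nt) and that of Rpl5 (−4.96 nt) had an exact p of 0.0625. The blocked fits called 0, 0 and 16 genes for the <30-nt share at 24 h, 48 h and over both, against 60, 23 and 64, and 17, 13 and 28 genes for abundance, against 0, 2 and 9. Changed abundance without a filter on low reads was called in 21, 23 and 36 genes, with all quality tags in 3 at 24 h, with median-ratio factors in 5 at 48 h, and in 0 with 48 h fitted alone.

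Leaving out each library in turn gave these further ranges. In Rpl5 the <30-nt difference ran −0.24 to 2.38 at 48 h and 0.46 to 1.77 over both (points), reversed without siLarp1 24 at 48 h and past the threshold without siLarp1 25 over both. The 30 to 90 nt difference ran −0.84 to 3.48 at 24 h, −4.88 to 1.79 at 48 h and −1.89 to 1.44 over both in Rpl5, and −0.74 to 2.05 at 24 h in Rpl11 (points). The median difference ran −2.38 to 3.21 at 48 h and −2.18 to 0.62 over both in Rpl5, and −3.96 to 13.7 at 48 h and −3.87 to 4.97 over both in Rpl11 (nt), the latter reversed at both without siLarp1 25. The 10th percentile of Rpl5 ran −6.76 to −3.17 over both (nt). Rpl5 against Rpl11 ran −0.65 to −0.22 over both in log2 odds, −0.051 to 0.11 at 48 h and −0.038 to 0.043 over both in log2 read ratio and −10.5 to 1.58 at 48 h and −4.35 to 1.69 over both in median (nt). Against the large subunit, Rpl5 ran −0.0098 to 0.35 at 24 h, −0.85 to 0.43 at 48 h and −0.33 to 0.31 over both, and Rpl11 0.32 to 0.53 over both. In the fit over all genes the Rpl5 log2 odds at 48 h ran −0.11 (reversed, without siLarp1 24) to 1.25. The log2 abundance change ran −0.015 to 0.032 at 24 h in Rpl5, and −0.00029 to 0.064 at 24 h in Rpl11. Genes called for the <30-nt share numbered 38 to 59 at 24 h, 0 to 23 at 48 h and 25 to 68 over both, with 0 at 48 h and 25 over both without siCtl 25, and 40 over both without siLarp1 24. Genes called for the 30 to 90 nt share numbered 3 to 12 at 24 h, 0 to 2 at 48 h and 0 to 12 over both, and for abundance 0 to 8 at 24 h, 0 to 6 at 48 h and 3 to 13 over both.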
